A study of Mus musculus with 6 samples.

Results

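Glycolysis and the steps around it were followed through 36 genes that carry glucose into the cell, convert it to pyruvate, turn pyruvate into lactate, move lactate across the membrane and control the entry of pyruvate into mitochondria. The genes were chosen by symbol, and all 36 were found among the 55011 rows of the gene count table. They were ordered into 17 steps along the pathway. The measurements are RNA-seq counts of 6 libraries made from visceral fat stromal cells of mice in culture, the connective-tissue cells that include the precursors of adipocytes. Cells without EGFP from an Il33 reporter (Il33 encodes an alarmin cytokine) had been kept for 3 days either in 10 nM irisin/HSP90α, the irisin group of 3 libraries, or in phosphate-buffered saline, the PBS group of 3 libraries. All 6 libraries share the reporter genotype, given as Il33-EGFP-, and the origin, given as VAT in the labels and as eWAT in the design text. Irisin is a hormone cleaved from the muscle protein Fndc5, and the chaperone HSP90α can act extracellularly. Whether the PBS wells held HSP90α, the age and sex of the mice, and whether replicates were separate cultures or animals are not stated in these sources, so the p-values rest on a spread between samples that may be technical only. The comparison asks which steps of glucose use differed between irisin and PBS.

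In the cytosol, glycolysis splits glucose into pyruvate and yields ATP without oxygen. Lactate dehydrogenase reduces pyruvate to lactate and restores the NAD+ that the pathway needs, and monocarboxylate transporters carry lactate across the plasma membrane. Alternatively, the pyruvate dehydrogenase complex passes pyruvate carbon to the tricarboxylic acid cycle in mitochondria, and the pyruvate dehydrogenase kinases switch that complex off. In fat, insulin draws glucose into adipocytes through the transporter encoded by Slc2a4, and many genes of glycolysis are known targets of the hypoxia-inducible transcription factor HIF-1.

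Total counts per library were 5360724 to 6588363 in irisin and 5271309 to 6745799 in PBS, so that a level of 1 CPM (the count scaled to a common library size) stood on 5.17 to 6.89 counts. All 10 stromal markers were detected, among them Col1a1 at 11586 ± 476 CPM in irisin and 8249 ± 1266 CPM in PBS (SD, n = 3 each), where Pdgfra also was higher, Cd34, Thy1 and Lum were lower and the other 5 were not called. Pdgfra averaged 1765 CPM in irisin and 1161 CPM in PBS, and Cd34 38.9 CPM in irisin and 103 CPM in PBS. The rise of Col1a1 lost its call without irisin replicate 2 or 3. Of 8 adipocyte markers, 7 were tested and all 7 were lower (5 without PBS replicate 3, 6 without irisin replicate 2), where 3.22% of all genes fell. Lep was at 0 in every library. The summed level of these markers was 149 to 203 CPM in irisin and 656 to 1115 CPM in PBS. Most of it was Car3 (mean 130 CPM in irisin and 618 CPM in PBS), which lost its call without PBS replicate 3. Macrophage markers summed to 67.3 to 75.4 CPM in irisin and 64.6 to 76.4 CPM in PBS, most of it Csf1r. The leukocyte marker Ptprc averaged 0.171 CPM in irisin and 0.312 CPM in PBS. Endothelial markers summed to 19.9 to 27.0 CPM in irisin and 31.3 to 38.2 CPM in PBS, most of it Tek, which was lower (adjusted p = 0.0303 by edgeR), a call lost without irisin replicate 2 or 3 or PBS replicate 1 or 2. Cdh5 had 5, 0 and 1 counts in irisin and 1, 0 and 0 counts in PBS. Summed levels of 9 skeletal muscle markers were 35.4 to 43.7 CPM in irisin and 73.3 to 87.4 CPM in PBS, most of it from Des, with Myod1 at 0. The part that the adipocyte, endothelial and muscle marker levels have in the results below was not tested. On the second principal component (23.9% of variance) irisin replicate 1 and PBS replicate 3 stood apart from the other 4 libraries. Counts of called members are also given without both, as are those counts of the other pathway lists that then changed.

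With irisin, genes of nearly the whole length of the pathway were higher, and the largest rises came at its end. Of the 36 members, 35 passed the filter on low counts, and of these 14 rose, 1 fell and 20 did not pass an adjusted p of 0.05, adjusted by the Benjamini-Hochberg method over all 12296 genes in edgeR's quasi-likelihood fit. Called members were 42.9% of those tested, against 7.42% of all genes tested, and the 14 that rose were 40% of the tested members, against 4.2% of all genes. A single fall made up 2.86% of the tested members, against 3.22% of all genes. The median log2 fold change (irisin over PBS) was 0.27 over the 35 members and -0.01 over all genes tested. Of the 17 steps, 13 held a member that rose, and the 4 without a call were hexokinase, phosphofructokinase-2, glyceraldehyde-3-phosphate dehydrogenase and pyruvate dehydrogenase E1. Together the 36 members took 1.22% to 1.29% of all counts in irisin libraries and 0.804% to 0.856% in PBS libraries. Their summed level was 12838 ± 338 CPM in irisin and 8074 ± 220 CPM in PBS (SD, n = 3 each). Ldha, Pkm, Aldoa and Tpi1 made up 70.0% of the difference between the summed levels. Of the 35 tested members, 22 had irisin values that did not overlap with those of PBS, as did 23.6% of all genes tested. In these bulk samples, more RNA per cell and more cells that hold the RNA cannot be told apart.

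**Figure D1:**
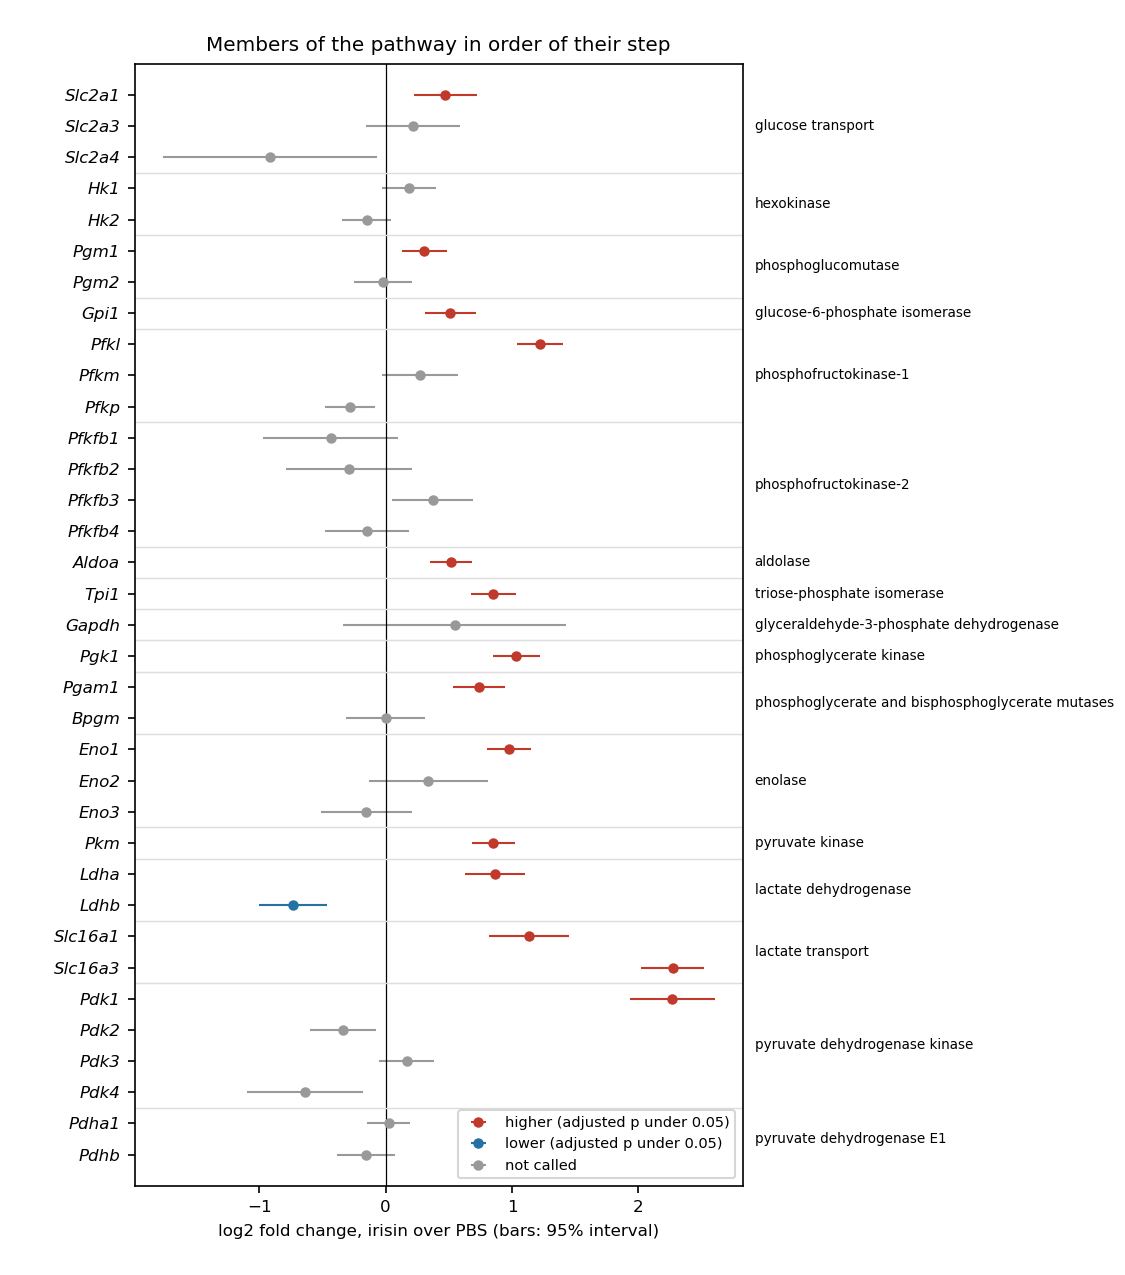
Log2 fold change (irisin over PBS) of the 35 tested members, with 95% intervals from edgeR's quasi-likelihood fit, in pathway order from glucose transport at the top to pyruvate dehydrogenase at the bottom. Red marks the 14 members that rose and blue the 1 that fell (adjusted p under 0.05). Slc16a3 and Pdk1 lie furthest to the right, Ldhb is the blue point, and Gapdh has the widest interval.

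At the entry of glucose the differences were small. Slc2a1, which encodes the broadly expressed glucose transporter GLUT1, had 63.2, 67.5 and 64.9 CPM in irisin replicates 1, 2 and 3, against 40.6, 49.0 and 51.7 CPM in PBS replicates 1, 2 and 3. The groups did not overlap, and Slc2a1 rose 1.39-fold (log2 fold change 0.47 ± 0.11 SE, adjusted p = 0.0245). This call was lost without irisin replicate 2 or 3 or PBS replicate 1 or 2 (adjusted p at most 0.127) and with total counts alone (0.0582). Slc2a3, the high-affinity transporter GLUT3, had 21.8, 27.1 and 20.6 CPM in irisin and 17.7, 23.9 and 17.9 CPM in PBS and did not pass (adjusted p = 0.590 by edgeR). Slc2a4, the insulin-responsive GLUT4 of adipocytes and muscle, stood on 7, 8 and 14 counts in irisin and 23, 24 and 11 counts in PBS, groups that overlapped (log2 fold change -0.92 ± 0.39, adjusted p = 0.230). The summed adipocyte markers were lower with irisin, and a link to the values of Slc2a4 was not tested.

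The hexokinases, which trap glucose as its phosphate, gave no call in either direction. Hk1, the form of most tissues, had 95.4, 89.7 and 94.9 CPM in irisin, against 90.6, 77.8 and 78.2 CPM in PBS, and the groups overlapped. Hk2, the inducible form, had 96.0, 107 and 106 CPM in irisin, all below the 119, 110 and 114 CPM in PBS. Their log2 fold changes were 0.18 (95% interval -0.03 to 0.40) for Hk1 and -0.15 (-0.35 to 0.05) for Hk2. Neither passed by edgeR even at an unadjusted p of 0.05, and DESeq2 and limma-voom also gave 0 calls. Of the phosphoglucomutases, which link glucose phosphate to glycogen, Pgm1 had 178, 170.3 and 175 CPM in irisin and 144, 135 and 144 CPM in PBS and rose 1.24-fold (log2 fold change 0.31 ± 0.08, adjusted p = 0.0383). Leaving out any library except PBS replicate 3 ended that call (adjusted p 0.110 to 0.157), as did DESeq2 (0.0700), total counts alone (0.133) and no low-count filter (0.0951). Pgm2 had 43.9, 41.0 and 45.1 CPM in irisin and 44.7, 44.1 and 43.1 CPM in PBS. RefSeq gives each of these symbols as an older name of the other gene, and the annotation release behind the counts is not given, so Pgm1 and Pgm2 are as the count table names them. Gpi1, the isomerase that makes fructose phosphate from glucose phosphate, had 645, 681 and 707 CPM in irisin, all above the 495, 512 and 419 CPM in PBS, and rose 1.43-fold (log2 fold change 0.51 ± 0.09, adjusted p = 0.00339).

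Phosphofructokinase-1 makes the committed step of glycolysis, and its subunits did not change alike. Pfkl, the liver-type subunit, had 575, 521 and 510 CPM in irisin, against 224, 232 and 233 CPM in PBS. Each irisin value was above every PBS value, and Pfkl rose 2.33-fold (log2 fold change 1.22 ± 0.08, adjusted p = 8.63e-07). The platelet-type subunit Pfkp had 159, 148 and 155 CPM in irisin, all below the 184, 173 and 206 CPM in PBS, but did not pass (log2 fold change -0.29, 95% interval -0.48 to -0.09, adjusted p = 0.0858). Pfkp passed as lower with total counts alone (adjusted p = 0.0308) and with irisin replicate 1 and PBS replicate 3 both left out (0.0186). Pfkm, the muscle-type subunit, had 31.0, 31.7 and 34.9 CPM in irisin and 28.2, 30.0 and 22.5 CPM in PBS, without overlap but also without a call (adjusted p = 0.330). Scaled by exon length, Pfkl made up 79.0% ± 1.33 of the phosphofructokinase-1 RNA in irisin and 60.9% ± 0.630 in PBS, and Pfkp 11.3% ± 0.367 in irisin and 24.8% ± 2.09 in PBS (SD, n = 3 each). With the longest transcript of any type as length, the share of Pfkl was 83.1% in irisin and 66.5% in PBS. For Pfkp that transcript had 8681 bases, against 4145 for its longest protein-coding one. A shorter length would give Pfkp a larger share, and shares by coding transcripts were not computed.

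The phosphofructokinase-2 enzymes make and remove a regulatory fructose bisphosphate, an isomer of the one in the pathway, that activates phosphofructokinase-1. None of their 4 genes was called by edgeR, DESeq2 or limma-voom, and 1 had an unadjusted p under 0.05. That gene was Pfkfb3, the form with high kinase activity, with 33.4, 35.0 and 33.0 CPM in irisin, all above the 29.0, 28.7 and 20.3 CPM in PBS (log2 fold change 0.37, 95% interval 0.05 to 0.69, adjusted p = 0.188). Pfkfb4 averaged 23.7 ± 3.08 CPM in irisin and 26.1 ± 3.57 CPM in PBS. Pfkfb1 and Pfkfb2 were scarce: Pfkfb1 averaged 5.86 ± 1.49 CPM in irisin and 7.96 ± 1.21 CPM in PBS, and Pfkfb2 5.54 ± 0.592 CPM in irisin and 6.74 ± 0.899 CPM in PBS.

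The enzymes from aldolase to pyruvate kinase rose, except for Gapdh, Bpgm and the minor enolases. Aldoa, the ubiquitous aldolase that splits fructose bisphosphate, had 2225, 2127 and 2165 CPM in irisin, against 1500, 1508 and 1545 CPM in PBS, and rose 1.43-fold (log2 fold change 0.52 ± 0.08, adjusted p = 0.000793). Aldoc, the brain aldolase, did not pass the filter, with 7, 6 and 12 counts in irisin and 1, 3 and 1 counts in PBS. Tpi1, which interconverts the triose phosphates, had 1029, 968 and 919 CPM in irisin and 519, 536 and 562 CPM in PBS, a 1.80-fold rise (log2 fold change 0.85 ± 0.08, adjusted p = 1.76e-05). Pgk1, which makes the first ATP of the pathway, had 175, 188 and 189 CPM in irisin and 88.8, 89.7 and 91.0 CPM in PBS. It rose 2.05-fold (log2 fold change 1.04 ± 0.08, adjusted p = 4.72e-06). Pgam1, the phosphoglycerate mutase, had 99.9, 104 and 103 CPM in irisin and 61.1, 65.1 and 57.6 CPM in PBS and rose 1.67-fold (log2 fold change 0.74 ± 0.09, adjusted p = 0.000223). Bpgm, which makes the bisphosphoglycerate known from red blood cells, had 37.6, 27.8 and 33.3 CPM in irisin and 29.5, 32.8 and 37.0 CPM in PBS, with a 95% interval of the log2 fold change from -0.31 to 0.31.

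Among the enolases, which form phosphoenolpyruvate, Eno1 had 915, 847 and 818 CPM in irisin and 428, 438 and 445 CPM in PBS. It rose 1.97-fold (log2 fold change 0.98 ± 0.08, adjusted p = 5.01e-06), with no overlap of the groups. The neuronal form Eno2 had 18.7, 33.8 and 26.9 CPM in irisin and 24.1, 21.9 and 16.2 CPM in PBS. The muscle form Eno3 had 32.0, 19.7 and 27.3 CPM in irisin and 29.0, 27.9 and 31.5 CPM in PBS. Both overlapped between groups, with adjusted p of 0.476 for Eno2 and 0.726 for Eno3 by edgeR. By exon length Eno1 made up 88.5% ± 0.918 of the enolase RNA in irisin and 79.2% ± 0.640 in PBS (SD, n = 3 each), and by the longest transcript 94.1% in irisin and 89.1% in PBS. Pkm, the pyruvate kinase gene of most tissues, had 1939, 1854 and 1844 CPM in irisin and 1007, 1029 and 1085 CPM in PBS. It rose 1.81-fold (log2 fold change 0.85 ± 0.08, adjusted p = 1.38e-05). Counts per gene do not tell its splice forms apart.

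Gapdh, a common reference gene, was the most variable of the abundant members. It had 376, 557 and 556 CPM in irisin, against 380, 441 and 198 CPM in PBS, so that irisin replicate 1 fell within the PBS range. Its log2 fold change of 0.55 had a 95% interval from -0.34 to 1.43 and did not pass (adjusted p = 0.525, unadjusted p = 0.173), nor did DESeq2 or limma-voom call it. The low values were those of irisin replicate 1 and PBS replicate 3, the libraries that stood apart, and without both of them Gapdh passed as higher (log2 fold change 0.44, adjusted p = 2.12e-06). The longest protein-coding transcript of each member in GENCODE M21 was cut into 50-base windows. For Gapdh, 82.5% of these windows also occurred in transcripts of other genes, 222 of them by symbol. Rows of those other genes held 381, 393 and 458 counts in irisin and 414, 410 and 245 counts in PBS. Shared windows were 72.2% for Eno1, 68% for Pgk1, 41.5% for Pgam1, 34.4% for Pkm, 27% for Ldhb, 25.3% for Gpi1, 16.6% for Ldha, 13.5% for Aldoa and 7.51% for Tpi1, and none was found for Slc16a1, Slc16a3 or Pdk1. How the authors' counting treated reads that map to several places, and the read length, are not stated in these sources. Levels of the members with many shared windows may thus be understated or overstated and are uncertain. For Gpi1, the 122 other genes sharing windows held 196241 counts, from any part of those genes, against 20971 of Gpi1.

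**Figure D2:**
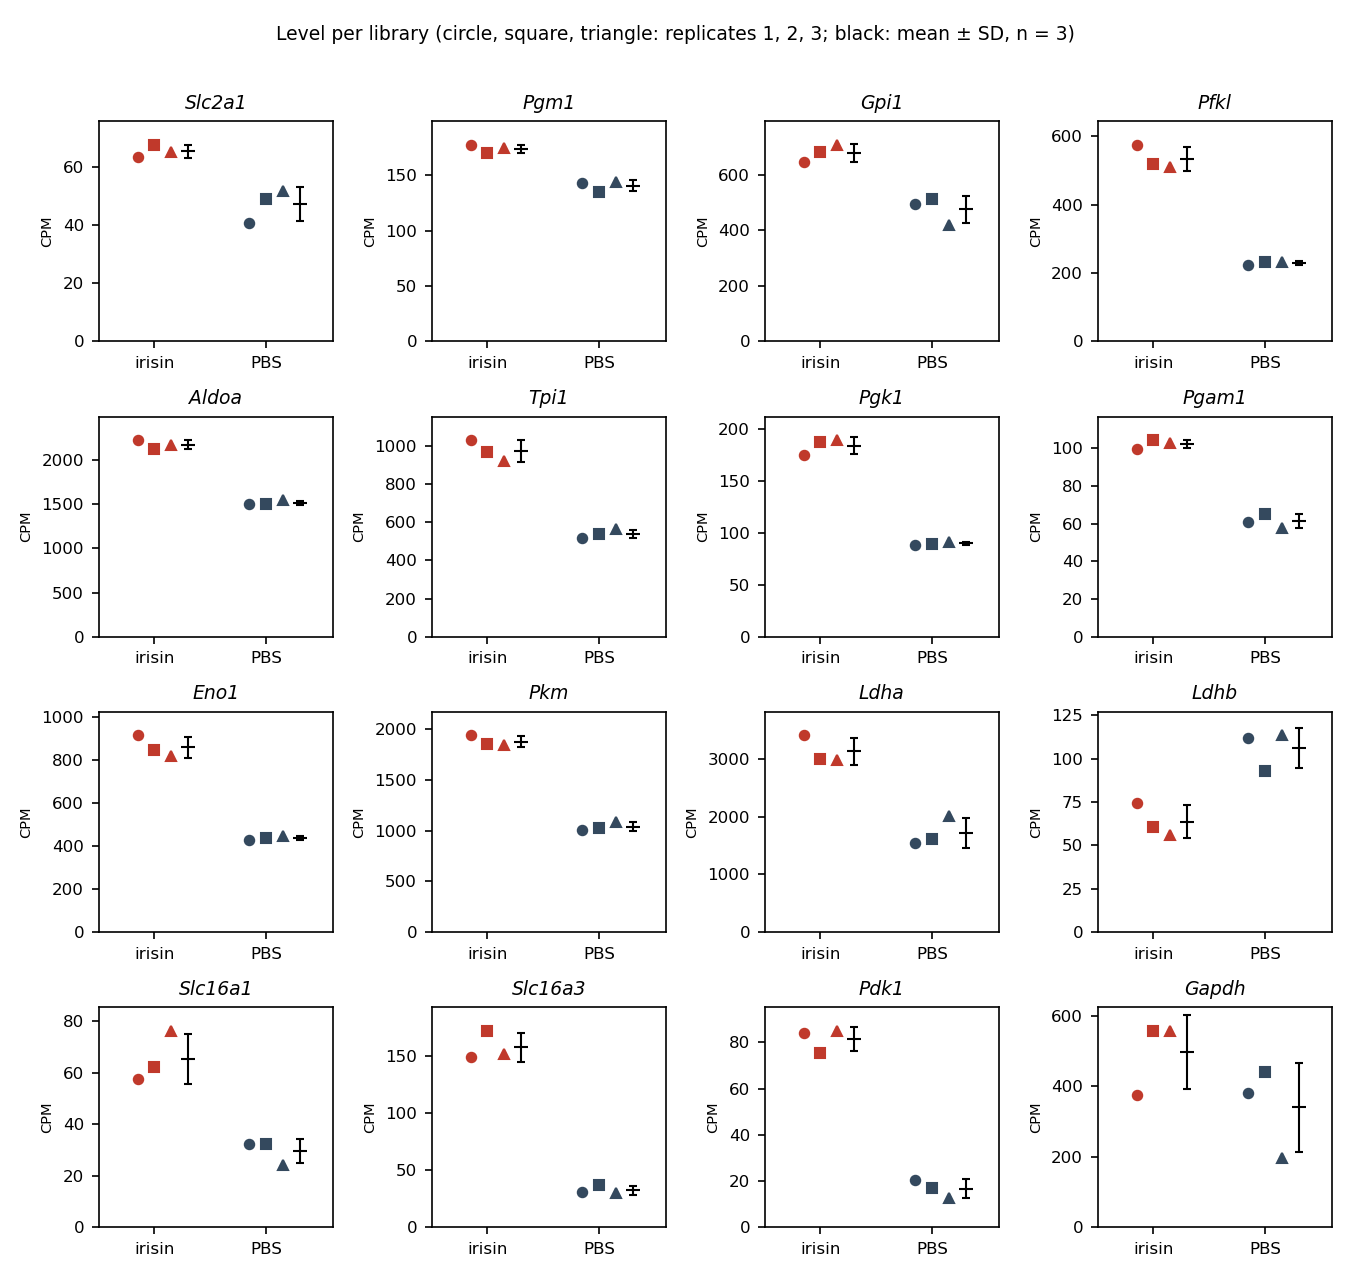
CPM per library of the 15 called members and Gapdh, each panel with its own linear axis from 0, irisin on the left and PBS on the right. Symbols mark the replicate numbers, and black bars give mean ± SD (n = 3). The groups are apart in the 15 called members, and in Gapdh the circle of irisin (376 CPM) lies below the circle of PBS (380 CPM).

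Lactate dehydrogenase was the step at which both directions were seen. Its subunits form tetramers, of which those rich in the A subunit are known for forming lactate and those rich in the B subunit for oxidising it. Ldha, the A subunit, had 3403, 3002 and 2980 CPM in irisin, against 1535, 1611 and 2013 CPM in PBS. No irisin value reached down to the PBS values, and Ldha rose 1.82-fold (log2 fold change 0.86 ± 0.11, adjusted p = 0.000207). Ldhb, the B subunit, had 74.3, 60.9 and 55.9 CPM in irisin, all below the 112, 93.0 and 113 CPM in PBS. Ldhb was the member that fell, 1.67-fold lower with irisin (log2 fold change -0.74 ± 0.12, adjusted p = 0.00204). Per length of exons, Ldhb was 4.40%, 4.10% and 3.81% of lactate dehydrogenase RNA in irisin, against 13.4%, 10.9% and 10.6% in PBS, and by the longest transcript its mean was 2.75% in irisin and 7.98% in PBS. Per kilobase of exon, Ldha stood at 945 ± 71.9 CPM in irisin and 519.5 ± 77.6 CPM in PBS, and Aldoa at 746 ± 16.9 CPM in irisin and 521 ± 8.22 CPM in PBS (SD, n = 3 each). Ldha was the higher of the pair in each irisin library, and in PBS in replicate 3 only.

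The lactate transporters were among the largest rises. Slc16a3, which encodes MCT4, the exporter known from glycolytic tissues, had 149, 172 and 152 CPM in irisin, against 30.6, 37.2 and 30.0 CPM in PBS. The groups lay far apart, and Slc16a3 rose 4.83-fold (log2 fold change 2.27 ± 0.11, adjusted p = 7.28e-08). By p it ranked 14 among all genes tested. Slc16a1, which encodes MCT1, a transporter that works in both directions, had 57.6, 62.4 and 76.4 CPM in irisin, against 32.2, 32.5 and 24.3 CPM in PBS, and rose 2.20-fold (log2 fold change 1.14 ± 0.15, adjusted p = 0.000217). Of the RNA of both transporters, scaled by exon length, Slc16a3 was 66.8% ± 3.90 in irisin and 47.9% ± 3.36 in PBS (SD, n = 3 each). By the longest transcript its mean was 71.1% in irisin and 53.0% in PBS. Which transporter had the larger mean share in PBS thus depended on the length. With either length, no library of irisin overlapped with PBS in the share of Slc16a3.

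Of the 4 pyruvate dehydrogenase kinases, 1 rose and 3 were not called. Pdk1, a kinase known to be induced by low oxygen, had 84.0, 75.4 and 85.0 CPM in irisin, against 20.6, 17.1 and 12.5 CPM in PBS. The groups were far apart, and Pdk1 rose 4.82-fold (log2 fold change 2.27 ± 0.15, adjusted p = 8.86e-07). Pdk2 and Pdk4, of which Pdk4 is known to rise with fasting and fatty acid use, had lower values with irisin in all 3 libraries and did not pass. Pdk2 had 35.1, 32.1 and 37.7 CPM in irisin and 41.8, 48.8 and 42.0 CPM in PBS (log2 fold change -0.34 ± 0.12, adjusted p = 0.133). Pdk4 had 8.48, 8.89 and 8.80 CPM in irisin, against 15.2, 15.7 and 9.57 CPM in PBS (log2 fold change -0.64 ± 0.21, adjusted p = 0.101). Without PBS replicate 3 Pdk4 passed as lower (adjusted p = 0.00816), as it did with limma-voom (0.0258). Pdk3, the most abundant of the 4 per length, had 101, 93.7 and 85.0 CPM in irisin and 80.1, 80.5 and 88.4 CPM in PBS, which overlap (adjusted p = 0.437). By exon length, Pdk1 made up 17.3% ± 1.17 of the kinase RNA in irisin and 4.11% ± 1.03 in PBS, while Pdk3 stood at 60.2% ± 3.05 in irisin and 61.9% ± 3.88 in PBS. The longest transcript as length gave Pdk1 20.2% in irisin and 4.90% in PBS. Both genes of the E1 enzyme that these kinases phosphorylate were without a call by edgeR, DESeq2 or limma-voom, and neither had an unadjusted p under 0.05. Pdha1 averaged 386 ± 4.11 CPM in irisin and 380 ± 19.9 CPM in PBS, with a 95% interval of the log2 fold change from -0.15 to 0.20, and Pdhb averaged 92.2 ± 7.01 CPM in irisin and 103 ± 11.9 CPM in PBS.

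**Figure D3:**
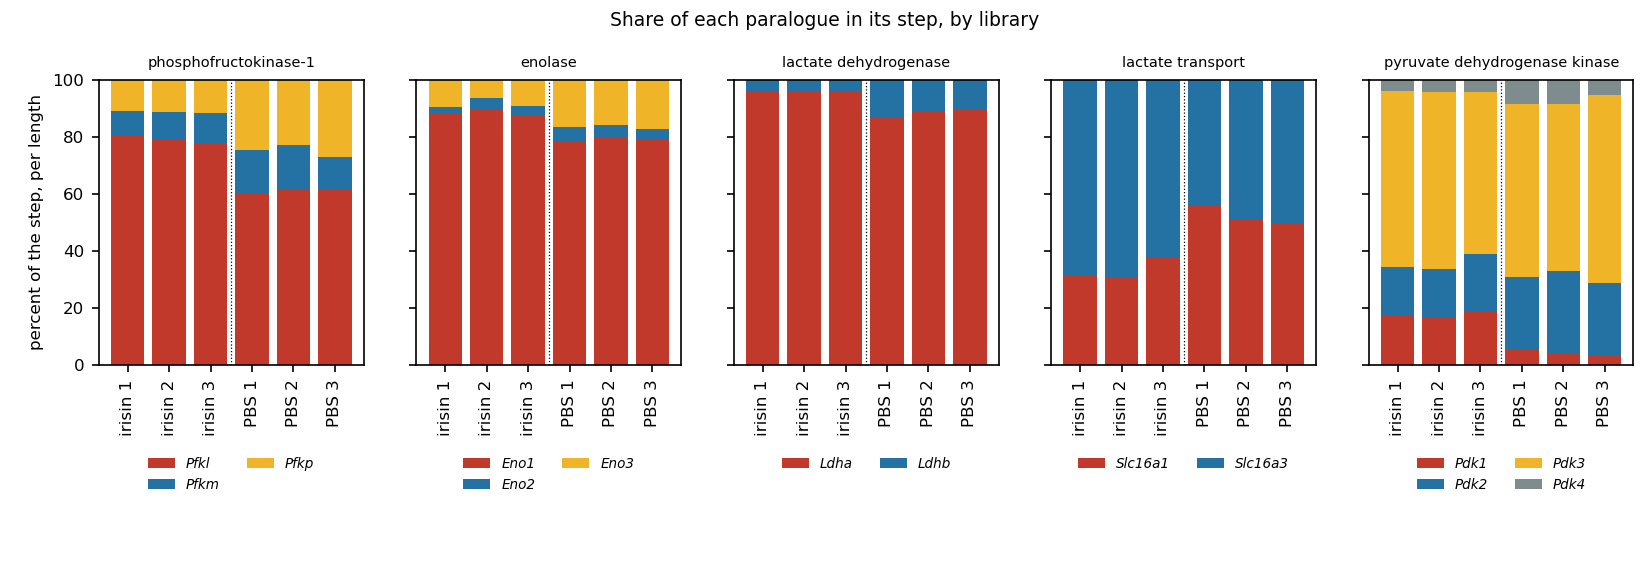
Share of each gene in the RNA of its step, in percent of CPM per kilobase of exon, by library, with the 3 irisin libraries left of the dotted line and the 3 PBS libraries right of it. Pfkl, Eno1, Ldha, Slc16a3 and Pdk1 each held a larger share in irisin than in PBS libraries, as with Pdk1 at 17.3% in irisin and 4.11% in PBS.

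Promoters of the called members of the lactate and pyruvate branch are shown because this branch held the largest rises, of Slc16a3 and Pdk1, and the fall of Ldhb. The first RefSeq window of each gene is printed, and Ldha and Pdk1 have a second one. Each run covers 250 bases before to 50 bases after a RefSeq start (GRCm38.p6), 5′ to 3′ along the gene, with capitals for every ACGTG or GCGTG on either strand, letters that form the core of the HIF response element. A palindrome CACGTG holds ACGTG on both strands.
Ldha, chr7:46845554-46845853, plus strand: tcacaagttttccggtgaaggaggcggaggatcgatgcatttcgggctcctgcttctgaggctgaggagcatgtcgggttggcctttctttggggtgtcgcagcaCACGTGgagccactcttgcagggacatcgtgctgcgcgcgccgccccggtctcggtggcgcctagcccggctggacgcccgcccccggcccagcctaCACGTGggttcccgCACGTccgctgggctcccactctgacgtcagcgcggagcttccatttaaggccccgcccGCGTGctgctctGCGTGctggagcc
Ldhb, chr6:142507908-142508207, minus strand: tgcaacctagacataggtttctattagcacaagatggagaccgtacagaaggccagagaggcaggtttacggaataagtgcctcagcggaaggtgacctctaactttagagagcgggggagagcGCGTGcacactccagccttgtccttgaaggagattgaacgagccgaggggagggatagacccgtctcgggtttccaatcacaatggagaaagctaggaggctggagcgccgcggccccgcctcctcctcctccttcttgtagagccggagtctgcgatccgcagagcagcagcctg
Slc16a1, chr3:104638414-104638713, plus strand: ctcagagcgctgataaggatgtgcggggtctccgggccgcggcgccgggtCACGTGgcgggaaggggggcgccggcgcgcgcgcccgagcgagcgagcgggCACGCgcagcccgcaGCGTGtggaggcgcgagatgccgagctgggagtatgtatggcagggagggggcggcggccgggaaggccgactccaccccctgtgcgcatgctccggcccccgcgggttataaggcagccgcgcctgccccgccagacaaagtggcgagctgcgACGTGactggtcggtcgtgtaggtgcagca
Slc16a3, chr11:120948817-120949116, plus strand: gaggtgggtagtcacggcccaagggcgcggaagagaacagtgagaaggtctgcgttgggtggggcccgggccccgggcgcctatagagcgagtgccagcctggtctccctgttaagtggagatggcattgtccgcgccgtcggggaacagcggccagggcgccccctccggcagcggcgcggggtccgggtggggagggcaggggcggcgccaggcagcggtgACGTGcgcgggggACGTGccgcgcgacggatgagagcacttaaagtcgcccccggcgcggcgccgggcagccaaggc
Pdk1, chr2:71872974-71873273, plus strand: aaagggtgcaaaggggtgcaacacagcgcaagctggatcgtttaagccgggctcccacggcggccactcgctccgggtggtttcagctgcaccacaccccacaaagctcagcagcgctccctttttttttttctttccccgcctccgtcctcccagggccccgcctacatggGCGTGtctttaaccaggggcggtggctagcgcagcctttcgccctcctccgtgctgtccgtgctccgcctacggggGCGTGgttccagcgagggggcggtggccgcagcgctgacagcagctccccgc

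In the printed windows, Ldha held ACGTG at 5 places, 4 of them within 2 CACGTG palindromes, besides 2 of GCGTG. Slc16a1 held 3 of ACGTG and 2 of GCGTG, Slc16a3 held 2 of ACGTG, Pdk1 held 2 of GCGTG and Ldhb held 1 of GCGTG. The second Ldha window held 0 of ACGTG and 2 of GCGTG, and the second Pdk1 window held 0 of either. RefSeq promoters were found for 34 of the 36 members, 53 windows in all, some of which overlap. ACGTG occurred in 45.3% of these windows, against 25.5% of the 12059 promoters of tested genes and 19.6% of all 32851 promoters. Among the members, the share was 47.6% for windows of genes that rose and 43.3% for those of the other tested genes. GCGTG occurred in 52.8% of the members' windows and in 50.6% of promoters of tested genes. A match is a description of the letters in these windows only.

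Beyond the members, 16 other transporters, isoenzymes and helpers of glycolysis were tested. Of these 3 rose, where 4.2% of all genes did, and 0 fell by edgeR (2 had an unadjusted p under 0.05 as lower, and DESeq2 and limma-voom also called 0 lower). The 3 were Slc2a6, a glucose transporter family member known from inflammatory macrophages (7.91 CPM in irisin and 1.58 CPM in PBS, log2 fold change 2.29 ± 0.33, adjusted p = 0.000629), and the chaperones of the monocarboxylate transporters. Emb, the chaperone embigin, averaged 80.3 CPM in irisin and 50.4 CPM in PBS (log2 fold change 0.68 ± 0.11, adjusted p = 0.00194). Bsg, which encodes basigin, averaged 993 CPM in irisin and 738 CPM in PBS (log2 fold change 0.43 ± 0.09, adjusted p = 0.00811), a call lost without PBS replicate 1 or 2 (adjusted p 0.0513 to 0.0557). The rises numbered 5 without PBS replicate 3 and 5 by limma-voom. With irisin replicate 1 and PBS replicate 3 both left out, 5 rose and 1 fell.

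In glycogen metabolism 4 of 15 genes tested rose by edgeR, where 4.2% of all genes did. By edgeR 0 fell (2 with an unadjusted p under 0.05 as lower, 0 by DESeq2 and 1 by limma-voom). Gys1, glycogen synthase, averaged 114 CPM in irisin and 71.8 CPM in PBS (log2 fold change 0.66 ± 0.11, adjusted p = 0.00132). The other rises were Ppp1r3b, a glycogen-targeting phosphatase subunit (log2 fold change 1.04 ± 0.21, adjusted p = 0.00851), Pygl, a glycogen phosphorylase (0.43 ± 0.10, adjusted p = 0.0184), and Gbe1, the branching enzyme (0.59 ± 0.15, adjusted p = 0.0288). Each of these 3 lost its call when some single libraries were left out: Ppp1r3b without irisin replicate 2 or PBS replicate 1, Pygl without irisin replicate 2 or 3 or PBS replicate 2, and Gbe1 without irisin replicate 1 or 2 or PBS replicate 1 or 2. The glycogen rises then numbered 1 without irisin replicate 2 and 2 without PBS replicate 1 or PBS replicate 2. They numbered 5 without PBS replicate 3, and 5 without that library and irisin replicate 1.

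Most genes of the tricarboxylic acid cycle and of pyruvate entry were not called. Of 20 genes of the tricarboxylic acid cycle and their cytosolic forms, 4 fell, where 3.22% of all genes did, 16 were not called and 0 rose by edgeR (0 also at an unadjusted p of 0.05 and by DESeq2 and limma-voom). Idh1, the cytosolic isocitrate dehydrogenase, averaged 453 CPM in irisin and 671 CPM in PBS (log2 fold change -0.57 ± 0.10, adjusted p = 0.00313), and Aco1, the cytosolic aconitase, 160.0 CPM in irisin and 223 CPM in PBS (-0.48 ± 0.08, adjusted p = 0.00269). The mitochondrial Idh3a (-0.44 ± 0.11, adjusted p = 0.0319) and Fh1, fumarase (-0.34 ± 0.09, adjusted p = 0.0376), fell as well. The count of falls was 2 without irisin replicate 2 or 3 or PBS replicate 1 or 2, since Idh3a and Fh1 lost their calls, and Fh1 also lost it without irisin replicate 1. Of 14 genes of pyruvate entry, 1 fell, where 3.22% of all genes did. The rises numbered 0 (0 at an unadjusted p of 0.05, 0 by DESeq2 and limma-voom). The fall was of Pcx, pyruvate carboxylase, which averaged 73.9 CPM in irisin and 129 CPM in PBS (log2 fold change -0.81 ± 0.13, adjusted p = 0.00122). Of 7 genes of gluconeogenesis and glycerol metabolism, 1 fell by edgeR, where 3.22% of all genes did. With every library 0 rose (1 higher at an unadjusted p of 0.05, 0 by DESeq2 and 1 by limma-voom). With irisin replicate 1 and PBS replicate 3 both left out, 1 rose and 1 fell. The fall with every library was of Gpd1, which makes glycerol phosphate for fat synthesis. Gpd1 averaged 4.20 CPM in irisin and 17.1 CPM in PBS (log2 fold change -2.04 ± 0.36, adjusted p = 0.00557). Pcx and Gpd1 are abundant in adipocytes, and the summed adipocyte markers were lower with irisin as well. A link between these values was not tested. Of 9 pentose phosphate genes and 13 genes of side branches, 0 were called with every library by edgeR, DESeq2 or limma-voom. At an unadjusted p under 0.05, 1 pentose phosphate gene was lower and 2 side-branch genes were higher. With irisin replicate 1 and PBS replicate 3 both left out, edgeR called 2 pentose phosphate genes lower and 2 side-branch genes higher. Without PBS replicate 3 alone, 1 side-branch gene was called higher.

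Of the HIF subunit genes, Hif1a and Epas1 rose and Arnt was not called. Of 21 hypoxia genes tested, 10 rose, where 4.2% of all genes did. These gene lists were chosen with earlier results of these data known. Hif1a, which encodes the oxygen-sensitive subunit of HIF-1, averaged 463 CPM in irisin and 229 CPM in PBS (log2 fold change 1.01 ± 0.08, adjusted p = 4.91e-06), and Epas1, which encodes HIF-2α, 748 CPM in irisin and 327 CPM in PBS (1.19 ± 0.09, adjusted p = 1.87e-06). Arnt averaged 128 CPM in irisin and 137 CPM in PBS (-0.09 ± 0.08, adjusted p = 0.668 by edgeR). Of 18 regulators tested, 3 rose by edgeR, where 4.2% of all genes did. The falls numbered 0 by edgeR, 2 at an unadjusted p of 0.05, 0 by DESeq2 and 2 by limma-voom. They numbered 4 without PBS replicate 3 and 5 without that library and irisin replicate 1. The third rise was Trp53 (0.33 ± 0.09, adjusted p = 0.0399), a call lost on leaving out any library except PBS replicate 3. Among the 21 hypoxia genes, Slc2a1 included, 11 did not pass, with Ndrg1, Hilpda and Vegfa at log2 fold changes of -0.10, -0.15 and -0.04, and 0 fell by edgeR (0 also at an unadjusted p of 0.05 and by DESeq2 and limma-voom). The rises of lowest p were Ndufa4l2 (log2 fold change 3.32 ± 0.21), P4ha2, a collagen prolyl hydroxylase (1.24 ± 0.09), Bnip3, a mitophagy receptor (1.30 ± 0.11), and Fam162a (1.03 ± 0.09), with adjusted p from 5.28e-07 to 9.71e-06. The hypoxia rises numbered 6 or 7 with any library but PBS replicate 3 left out, and 14 without that library. They numbered 15 without that library and irisin replicate 1. Oxygen in the wells was not recorded in the sources used here. Of 8 proliferation genes tested, 2 fell by edgeR, Mcm2 and Mcm5, where 3.22% of all genes fell. With every library 0 rose (0 at an unadjusted p of 0.05, 0 by DESeq2 and limma-voom). Each of these falls was lost when any of several single libraries was left out. Both were lost together without PBS replicate 2 or 3 or any irisin library. With irisin replicate 1 and PBS replicate 3 both left out, 1 proliferation gene rose and 2 fell. Median log2 fold changes, beside -0.01 over all genes tested, were 0.47 for the hypoxia genes, 0.05 for glycogen metabolism, -0.01 for side branches, -0.03 for proliferation and -0.04 for the other glycolysis genes. They were -0.08 for the tricarboxylic acid cycle, -0.09 for pyruvate entry, -0.10 for the regulators, -0.12 for the pentose phosphate pathway and -0.19 for gluconeogenesis and glycerol metabolism.

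Across the 17 alternative settings, 12 of the 14 rises and the fall of Ldhb were called every time. The exceptions were Slc2a1 and Pgm1. With irisin replicate 1 and PBS replicate 3 both left out, 15 members rose, Gapdh added, and 3 fell, Pfkp and Pdk4 added. Over all genes, 1680 were then called, against 912 with every library. With libraries scaled by total counts alone, 41.2% of all calls were upward, against 56.6% with TMM, and 12 members rose and 2 fell.

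**Figure D4:**
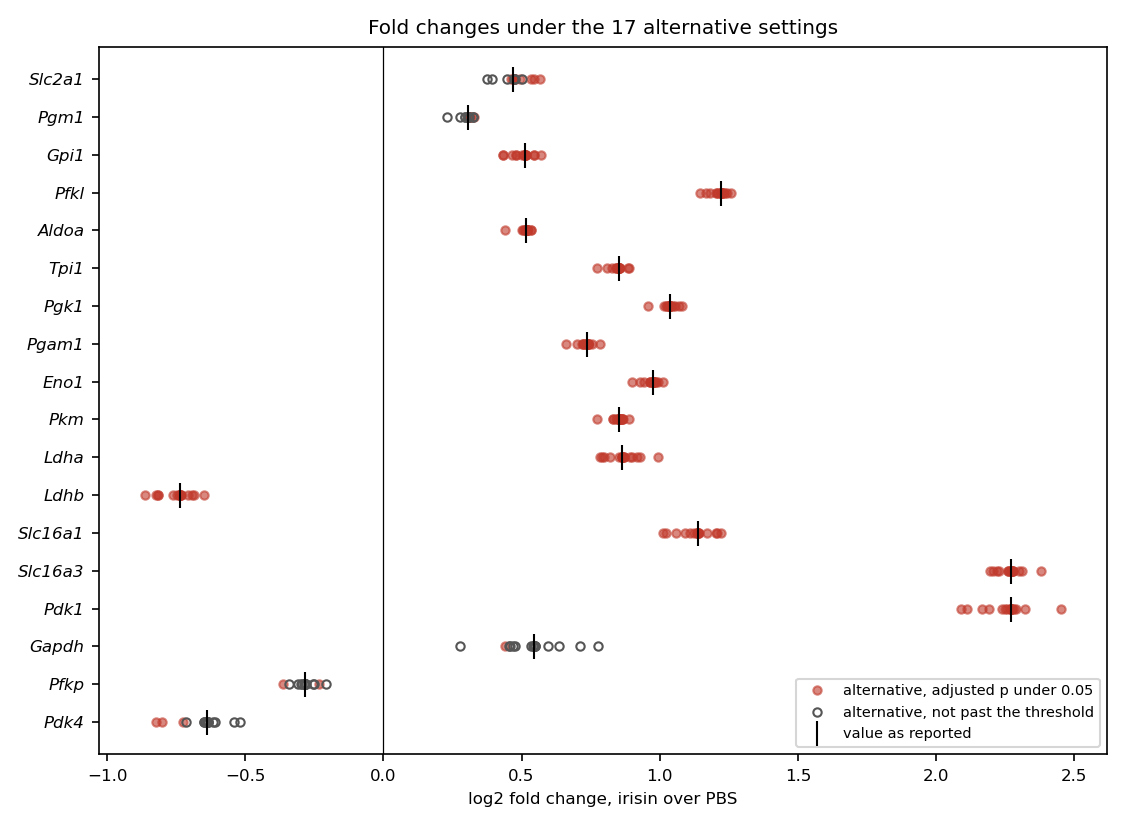
Log2 fold change (irisin over PBS) of the 15 called members and of Gapdh, Pfkp and Pdk4 as reported (black line) and under 17 alternative settings (points). Filled points passed an adjusted p of 0.05 and open points did not. Every point of Slc16a3 and Pdk1 lies above 2, and Slc2a1 and Pgm1 are the called members with open points.

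Exons of other annotated genes overlap some members. On the opposite strand they cover 741 bases of Gpi1, 748 of Pfkp, 603 of Pdha1, 398 of Pgm1, 157 of Hk1 and 105 of Slc2a1, and on the same strand 767 bases of Pkm, 1262 of Pfkfb2 and 341 of Pfkm. Whether counting used strand is not given, so these values are uncertain to that extent. No other annotated exon touches Slc16a3 (chromosome 11, 120948480 to 120960868), Pdk1 (chromosome 2, 71873224 to 71903858), Slc16a1 (chromosome 3, 104638668 to 104658462), Ldha (chromosome 7, 46841475 to 46855627), Ldhb (chromosome 6, 142490249 to 142507957) or Pfkl (chromosome 10, 77986947 to 78010083) in GENCODE M21 on GRCm38 (mm10). All 36 members are annotated as protein-coding. Counts are summed per gene, so exons and untranslated regions were not told apart.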

How the data were processed

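Polyadenylated RNA of 6 libraries was measured by the ultra-low-input procedure of the Immunological Genome Project from cells lysed in plates, per the labels' protocols. STAR 2.7.3a, featureCounts and mm10 are named in the submitters' processing notes. The authors deposited unnormalized read counts for each gene symbol. Columns and groups were matched by sample title.

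From these counts, edgeR 4.0.16 in R 4.3.3 kept genes with filterByExpr (count minimum 10), computed TMM factors and fitted group as the only term (robust quasi-likelihood F-test), adjusted by Benjamini-Hochberg, threshold 0.05. CPM divides counts by the TMM-scaled sum of tested genes. Standard errors are the log2 fold change divided by the square root of F. Exon lengths came from GENCODE M21, which matched 96.4% of symbols. On simulated data for irisin against PBS (12296 genes, 50 changed at each size), 38% of 1.5-fold, 70% of 2-fold, 96% of 4-fold and 96% of 8-fold changes were recovered, with 13 false among 163 calls.

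Members, gene lists and alternatives were chosen with earlier results of these data known. All members are accounted for, and of other lists up to 4 called genes of lowest p are named. Alternatives were RLE, upper quartile and no scaling factors, DESeq2 1.42.0, limma-voom with quality weights (limma 3.58.1), no robust dispersion, other count minimums, a replicate block, mitochondrial and ribosomal protein genes left out, and libraries left out singly or as a pair. Summed marker levels gave exact permutation p of 0.1 at the least, and are given as ranges. Libraries of a group differed by more than sampling noise (chi-square per degree of freedom 2.72 to 14.6), so none repeated another.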

Additional observations from a re-analysis of the deposited data

How the results depend on the processing

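The count of members that rose (14) stayed between 12 and 15 under 17 alternatives. The fall count (1) was 2 without PBS replicate 3, with total counts alone and with limma-voom, and 3 without both PBS replicate 3 and irisin replicate 1; with single libraries left out it ranged from 1 to 2. Over all genes, the 912 calls ranged from 589 to 1290 with single libraries left out (336 to 705 higher, 238 to 585 lower) and were 1680 without both libraries named above (892 higher, 788 lower), against 516 higher and 396 lower as reported. Total counts alone gave 602 lower.

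Of 592 member values under alternatives, 560 kept direction and side of the threshold, 15 lost and 6 gained a call, and 11 changed sign. All 11 were of members without a call. The reported log2 fold changes of those members were near 0 except for Eno3 (-0.15). Bpgm changed sign with RLE (0.00023), upper quartile (0.00068), limma-voom (0.0084), a count minimum of 50 (0.0050), mitochondrial and ribosomal protein genes left out (0.0019). Pdha1 did so with total counts alone (-0.054). With single libraries left out, the log2 fold change ranged from -0.11 to 0.10 for Bpgm, from -0.050 to 0.017 for Pgm2, from -0.31 to 0.011 for Eno3 and from -0.0073 to 0.070 for Pdha1. The cause was not tested.

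Deviations of same-numbered libraries from their group means correlated at -0.24, 0.16 and -0.18. Those of unlike-numbered libraries correlated at -0.24 to 0.36. With 3 libraries per group these values cannot decide whether replicate numbers pair the libraries. With the replicate block, 12 members rose (Slc2a1 and Pgm1 lost), 1 fell and 691 genes were called. Gpd1 (adjusted p = 0.0510), the 1 fall of its list, and Pygl, Gbe1, Idh3a, Fh1, Kdm3a, Higd1a, Lox, Trp53, Tek, Car3, Mcm2 and Mcm5 also lost their calls under the block. Aldoc has a value only with no low-count filter (log2 fold change 2.28, adjusted p = 0.0977). Members such as Slc2a4 rest on few counts, and 1.5-fold changes were often missed in simulated data.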
